A study of Sus scrofa with 6 samples.

Results

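The ARRDC2 antisense lncRNA locus is a spliced non-coding transcription unit on chromosome 2 of the pig, represented in the data by 2 of 4046 lncRNA transcripts. They were taken by their names, MSTRG.10061.1 and MSTRG.10061.3, which share the gene ID MSTRG.10061, and no other transcript of that ID is in the table. The locus was selected on its readout, the FPKM of MSTRG.10061.1 in LDM against PMM in these same libraries, so the LDM against PMM values of the locus below are a description and carry no test. RNA was sequenced from longissimus dorsi muscle (LDM), a glycolytic muscle of the back, and psoas major muscle (PMM), an oxidative muscle of the loin, with 3 libraries of each. All came from female Qingyu pigs, a Chinese native breed, at 178 days of age, which were kept off feed before slaughter and carried no treatment or genetic change. The LDM was cut near the last rib and the PMM from the core of the muscle, and each is a whole-tissue sample that holds fibres with vessels, fat and connective tissue. Fewer cells of a type and less RNA per cell cannot be told apart in such samples. The methods describe both muscles as taken from the same pigs, but nothing in the sources used here says which pig gave which library.

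ARRDC2 is a gene of the alpha-arrestins, a family of adaptor proteins related to the arrestins that switch off receptors. Alpha-arrestins bind ubiquitin ligases of the NEDD4 family and bring them to membrane proteins, which are then taken up from the cell surface and degraded, and the best known member, TXNIP, restrains glucose uptake. An antisense lncRNA is read from the strand opposite a gene. Such RNAs can act on the gene they face, for example through its chromatin or by pairing with its mRNA, or have no effect on it. The values below measure the lncRNAs, and the mRNA of ARRDC2 was not analysed here.

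The 2 transcripts are isoforms with a common start and different ends. MSTRG.10061.1 is listed on the plus strand of chromosome 2 from 59313150 to 59339421, with 4 exons and a spliced length of 1170 bases, 4.45% of the 26272 bp it spans. Its class code, x, says that it overlaps an exon of a known gene on the opposite strand, and the gene named there is ARRDC2. MSTRG.10061.3 starts at the same base and ends at 59328625, 10796 bp earlier. It also has 4 exons, but a spliced length of 1601 bases over 15476 bp, so the shorter unit on the chromosome gives the longer RNA. Its class code, u, places it between genes. The overlap with ARRDC2 is thus listed for the isoform that runs farther and not for the other. These positions are those of the authors' table. The methods and the submitters' processing notes name Sscrofa11.1, but on 18 of 19 chromosomes transcripts run past the last RefSeq gene of that assembly, and neither isoform overlaps its ARRDC2 interval, so the build of the positions is not settled. For that reason no exon sequence is given.

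Both isoforms scored as non-coding, which was a condition of entering the table. The Coding Potential Calculator (CPC) score was -1.06 for MSTRG.10061.1 and -1.12 for MSTRG.10061.3, where the authors kept transcripts below -1. By this score 81.9% of the table lay lower than MSTRG.10061.1 and 62.5% lower than MSTRG.10061.3. The Coding-Non-Coding Index (CNCI) was -0.02 for MSTRG.10061.1 and -0.0082 for MSTRG.10061.3, just under the limit of 0, with 61.4% and 76.1% of the table lower. Both isoforms therefore sat nearer to the limits than the median transcript did.

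The values are FPKM, fragments scaled to the length of the transcript and to the mapped fragments of the library, as the authors computed them, and the read coverage per base of the same transcripts. The ratio of coverage to FPKM was constant within each library, and put 7.24 to 8.78 gigabases behind the FPKM of LDM and 7.52 to 7.86 gigabases behind those of PMM. From 2304 to 2855 transcripts were above 0 FPKM in the LDM libraries and 2107 to 2303 in the PMM libraries. As a check of the tissue, 1 of 18 listed genes of skeletal muscle was overlapped by a lncRNA of the table. This was SLN, sarcolipin, and its transcript was above 0 in all 6 libraries. Its class code, j, says that it shares a splice junction with the known gene, so reads of SLN mRNA may be counted in it. It had 60.6 to 463 FPKM in LDM and 208 to 324 FPKM in PMM, so this check does not tell the muscles apart. The other listed muscle genes could not be checked in a table of lncRNAs.

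MSTRG.10061.1, the antisense isoform, was present in every library and had more signal in every LDM library than in any PMM library. It had 15.5, 8.62 and 15.4 FPKM in LDM replicates 1, 2 and 3, and 6.18, 2.74 and 3.82 FPKM in PMM replicates 1, 2 and 3. The lowest LDM library was replicate 2 and the highest PMM library was replicate 1, and a factor of 1.40 lay between them. Its mean was 13.2 ± 3.94 FPKM in LDM and 4.25 ± 1.76 FPKM in PMM (SD, n = 3 each), 3.10-fold higher in LDM. On the scale of log2(FPKM + 1) the difference was 1.44, with a standard error of 0.36 from limma fitted over the 1721 transcripts that were detected, that is above 0 FPKM, in the 3 libraries of LDM or in those of PMM. Among these 1721 transcripts, 5.87% were higher in LDM and 9.01% higher in PMM with no overlap of the muscles. The contrast chose the locus, so nothing is read from these shares.

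MSTRG.10061.3, the intergenic isoform, was also above 0 in every library, but its level was low except in LDM replicate 1. It had 8.29, 0.854 and 1.48 FPKM in LDM replicates 1, 2 and 3, and 2.21, 0.517 and 1.76 FPKM in PMM replicates 1, 2 and 3. The muscles overlapped, and LDM replicates 2 and 3 lay within the range of PMM. The mean was 3.54 ± 4.13 FPKM in LDM and 1.50 ± 0.878 FPKM in PMM (SD, n = 3 each), so that the SD in LDM was larger than the mean. Its difference of log2(FPKM + 1), LDM minus PMM, was 0.56 with a standard error of 0.50 from limma. Without LDM replicate 1 the difference turned to -0.15. It was 1.01 without LDM replicate 2 and 0.23 without PMM replicate 2.

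**Figure D1:**
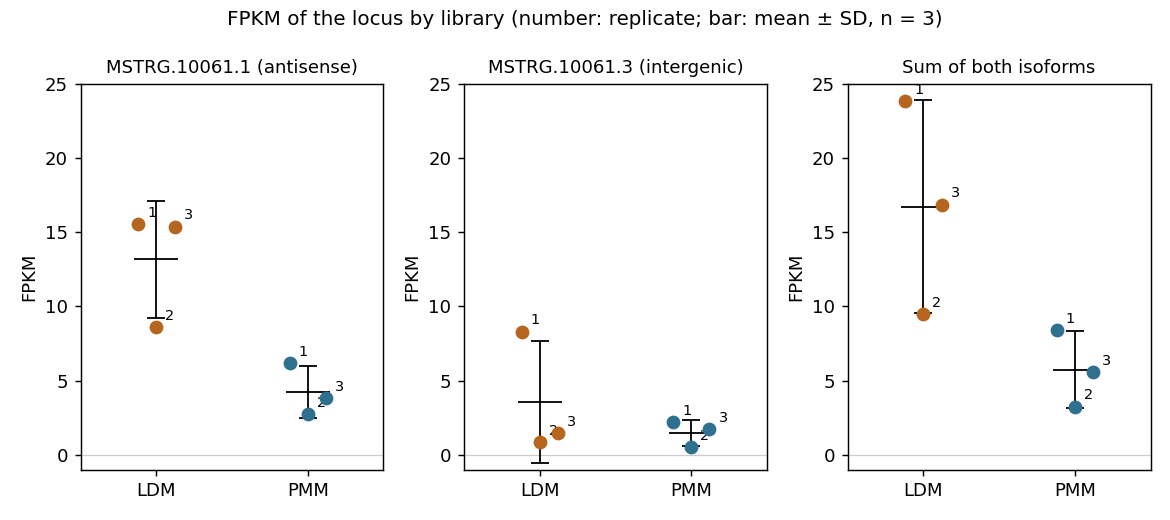
FPKM of MSTRG.10061.1, MSTRG.10061.3 and their sum in each library, with LDM left and PMM right. Points are libraries with their replicate number, and bars give the mean ± SD (n = 3). For MSTRG.10061.1 the LDM libraries, from 8.62 to 15.5 FPKM, all sit above the PMM libraries, while for MSTRG.10061.3 only LDM replicate 1, at 8.29 FPKM, stands clear of the rest.

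The sum of the FPKM of the isoforms covers the part of the locus that is listed. The numbering of the IDs has a gap, so the assembly may have held a further isoform that is not in the table. The sum also depends in part on how reads were divided between isoforms of unequal length. It was 23.8, 9.48 and 16.8 FPKM in LDM replicates 1, 2 and 3, and 8.39, 3.25 and 5.58 FPKM in PMM replicates 1, 2 and 3. The muscles did not overlap, but LDM replicate 2 lay only 1.13-fold above PMM replicate 1. The mean sum was 16.7 ± 7.17 FPKM in LDM and 5.74 ± 2.57 FPKM in PMM (SD, n = 3 each), 2.91-fold higher in LDM, and the log2 difference was 1.38 with a standard error of 0.38 from limma. With FPKM summed per gene ID, 6.01% of 1646 gene IDs were higher in LDM and 9.05% higher in PMM with no overlap. The bases assigned to the listed isoforms together, per gigabase of the library, do not depend on the division between them. They gave a 2.86-fold higher mean in LDM, with LDM replicate 2 at 1.06 times PMM replicate 1. Scaling the libraries by median-of-ratios factors gave a sum of 7.11 FPKM in LDM replicate 2, against 7.79 in PMM replicate 1, so the muscles then overlapped. MSTRG.10061.1 itself had 6.47 FPKM in LDM replicate 2, against 5.73 in PMM replicate 1, after this scaling and still did not overlap.

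Coverage gave the depth behind these values. MSTRG.10061.1 was covered at a mean of 123, 62.4 and 135 reads per base in LDM replicates 1, 2 and 3, and at 46.9, 20.6 and 30.1 in PMM replicates 1, 2 and 3. At 2 reads of 150 bases a fragment, this is 243 to 526 fragments in LDM and 80.2 to 183 in PMM, and a counting error of 4.36% to 6.41% in LDM and 7.39% to 11.2% in PMM. The spread between libraries was larger than that, with a coefficient of variation of the FPKM of 29.9% in LDM and 41.5% in PMM. MSTRG.10061.3 was covered at 65.9, 6.18 and 13.0 reads per base in LDM replicates 1, 2 and 3, and at 16.8, 3.89 and 13.8 in PMM replicates 1, 2 and 3. Its lowest values rest on few fragments, about 33.0 in LDM replicate 2 and 20.8 in PMM replicate 2, with counting errors of 17.4% and 22.0%. Its value in LDM replicate 1 rests on about 351 fragments. These errors cover counting only, take fragments as independent molecules and do not include how reads were divided between the isoforms.

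That division is an estimate. Coverage times length, the number of bases given to a transcript, was a whole number within 0.02 bases for 82.8% of all values above 0 and for 93.9% of those of single-exon transcripts. For transcripts of more than 1 exon, as both isoforms here are, it was whole for 33.4%. For transcripts of gene IDs with more than 1 transcript it was whole for 11.4%, and at the ARRDC2 locus for 0 of 12 values. The libraries were made with a kit that marks strand, but the methods give the default parameters of Tophat, which treat libraries as unstranded, and whether strand was used in the counting is not given in the sources used here. Without the use of strand, reads of MSTRG.10061.1 and of ARRDC2 mRNA in the shared stretch cannot be told apart. MSTRG.10061.3 is listed with no overlap of ARRDC2.

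Of the listed isoforms, MSTRG.10061.1 was the leading one in all 6 libraries. Its share of the summed FPKM was 65.2%, 91.0% and 91.2% in LDM replicates 1, 2 and 3, and 73.6%, 84.1% and 68.5% in PMM replicates 1, 2 and 3. The muscles overlapped fully, since the lowest share of all was in LDM replicate 1 and the highest in LDM replicate 3. The share averaged 82.5% ± 15.0 over the LDM libraries and 75.4% ± 7.94 over the PMM libraries (SD, n = 3 each), 7.05 percentage points higher in LDM. This difference was smaller than the spread between the LDM libraries. Leaving out LDM replicate 1 made it 15.7 points, and it was 2.79 when LDM replicate 2 was left out, 2.67 for LDM replicate 3, 11.4 for PMM replicate 2 and 3.60 for PMM replicate 3. As a ratio, MSTRG.10061.1 had 1.87, 10.1 and 10.4 times the FPKM of MSTRG.10061.3 in LDM replicates 1, 2 and 3, and 2.79, 5.29 and 2.18 times in PMM replicates 1, 2 and 3. LDM replicate 1 thus combined the highest level of the locus with the lowest ratio of the isoforms.

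**Figure D2:**
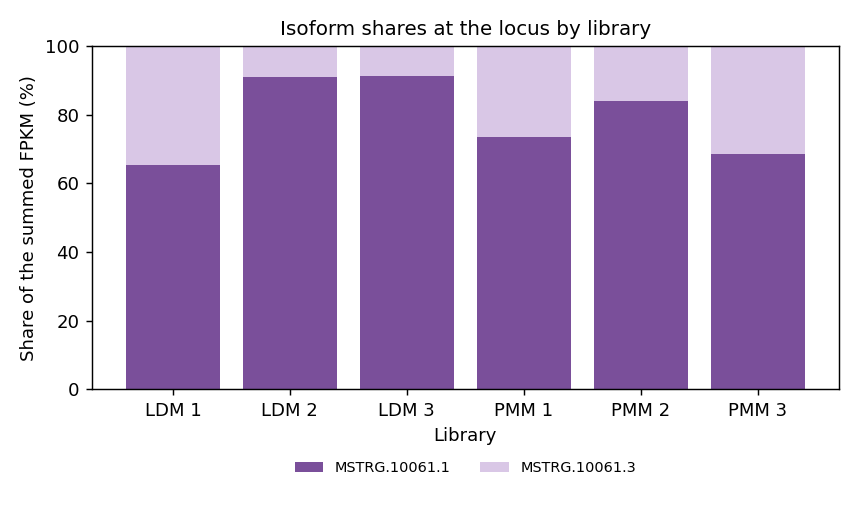
Share of the summed FPKM of the locus in percent (vertical axis) held by MSTRG.10061.1 and MSTRG.10061.3 in each of the 6 libraries. The dark part, MSTRG.10061.1, runs from 65.2% in LDM replicate 1 to 91.2% in LDM replicate 3, and the PMM libraries lie between them.

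Libraries of the same replicate number were set side by side, since their deviations from the muscle means were weakly correlated over all transcripts. MSTRG.10061.1 was 2.51-fold, 3.15-fold and 4.02-fold higher in LDM for numbers 1, 2 and 3. MSTRG.10061.3 had LDM over PMM ratios of 3.74, 1.65 and 0.842 for the same numbers, so it was lower in LDM for number 3. Their sum was 2.84-fold, 2.91-fold and 3.02-fold higher in LDM, so with FPKM as deposited the ratio of the sum varied less between the pairs than that of either isoform. After median-of-ratios scaling the sum was 3.75-fold, 2.67-fold and 4.34-fold higher in LDM. Within both muscles the sum was highest in replicate 1 and lowest in replicate 2. That a number marks a pig is not stated, so this pairing is an assumption.

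**Figure D3:**
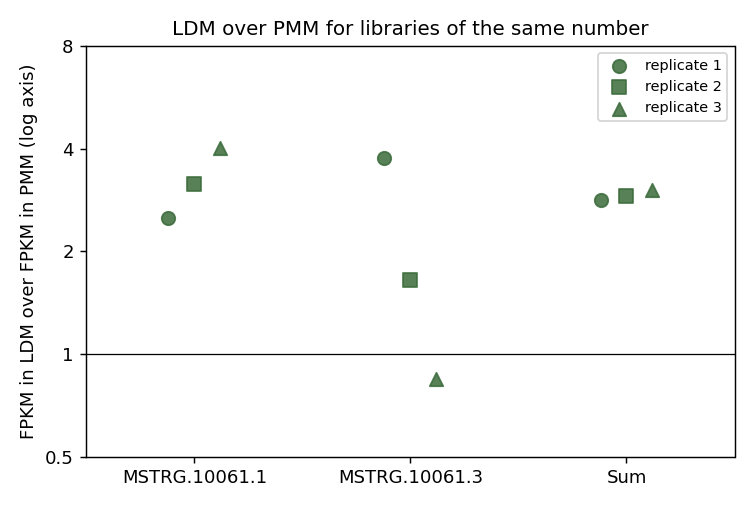
FPKM in LDM over FPKM in PMM (log axis) for libraries of the same replicate number, for each isoform and for the sum. With FPKM as deposited, the 3 points of the sum lie between 2.84 and 3.02, while those of MSTRG.10061.3 run from 0.842 to 3.74.

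For its class the locus was highly expressed by the mean over the 6 libraries, which includes the LDM values used to select it. That mean of MSTRG.10061.1, 8.71 FPKM, ranked 49 of 4046 transcripts and 5 of the 174 transcripts opposite an exon. In PMM alone MSTRG.10061.1 averaged 4.25 FPKM. The median of the 174 was 0.751 FPKM, and that of the 110 detected ones 1.12 FPKM. The 4 antisense transcripts above MSTRG.10061.1 had 296, 23.5, 17.5 and 10.8 FPKM. Directly after MSTRG.10061.1 came those opposite PTRH2, a mitochondrial peptidyl-tRNA hydrolase gene, with 7.16 FPKM, and SEC24A, a gene of the vesicle coat of the endoplasmic reticulum, with 6.88 FPKM. Of the 46 transcripts with 4 exons MSTRG.10061.1 had the highest mean, and MSTRG.10061.3, at 2.52 FPKM, ranked 9. MSTRG.10061.3 ranked 167 of 3310 intergenic transcripts, whose median was 0.440 FPKM. FPKM is scaled by length, so these levels can be set against each other, and each is a level and not a difference. Of the 174 antisense transcripts 110 were among the 1721. Of these 110, 6 (5.45%) were higher in LDM and 9 (8.18%) higher in PMM with no overlap, against 5.87% and 9.01% of the 1721. Their median log2 difference was -0.08, against -0.01 over the 1721 transcripts.

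**Figure D4:**
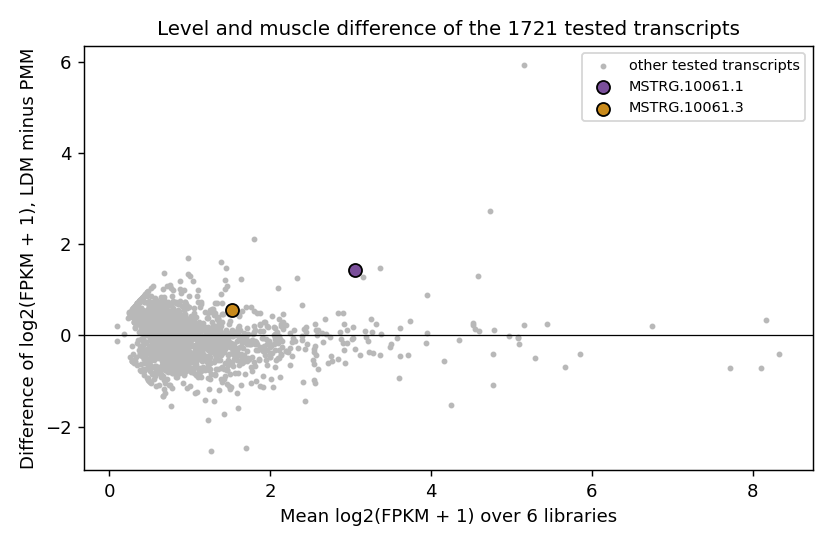
Mean log2(FPKM + 1) over 6 libraries (horizontal axis) and difference of log2(FPKM + 1), LDM minus PMM (vertical axis), of the 1721 transcripts. MSTRG.10061.1 lies at 1.44 on the vertical axis among the transcripts of higher level. MSTRG.10061.3 lies at 0.56, and by mean FPKM it ranked 218 of the 1721.

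The pattern of an antisense and an intergenic isoform at one gene ID occurred at 3 loci in the table. At the other two the antisense isoform had fewer FPKM in each library than MSTRG.10061.1. MSTRG.1350.1, opposite PSMA3, a gene of a proteasome subunit, averaged 1.75 ± 1.51 FPKM in LDM muscle and 1.36 ± 0.475 FPKM in PMM muscle, and its intergenic partner MSTRG.1350.2 1.28 ± 0.493 FPKM in LDM muscle and 1.62 ± 0.614 FPKM in PMM muscle (SD, n = 3 each). MSTRG.17315.1, opposite STON2, a gene of endocytosis, averaged 1.48 ± 0.826 FPKM in LDM muscle and 1.59 ± 0.340 FPKM in PMM muscle, and MSTRG.17315.2, which shares its start, 1.77 ± 1.45 FPKM in LDM muscle and 1.79 ± 0.477 FPKM in PMM muscle (SD, n = 3 each). The antisense isoform held the larger part in 6 of 6 libraries at ARRDC2, in 3 at PSMA3 and in 2 at STON2. Its share ran from 15.6% to 64.3% at PSMA3 and from 38.9% to 61.6% at STON2, and so stayed below the lowest share at ARRDC2 in every library. These differences between loci were not tested.

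Set among all loci of several isoforms, the steadiness of the split was near the middle. There were 68 such gene IDs, and at 38 of them every transcript was above 0 in all 6 libraries. At MSTRG.10061 the share of the leading isoform ranged over 26.0 percentage points between libraries, rank 16 from the narrowest of 38, where the median was 31.5 and the extremes 4.29 and 90.9. The leading isoform led in all 6 libraries at 17 of the 38 loci. By the mean of the summed FPKM, 11.2, MSTRG.10061 ranked 5 of 38.

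**Figure D5:**
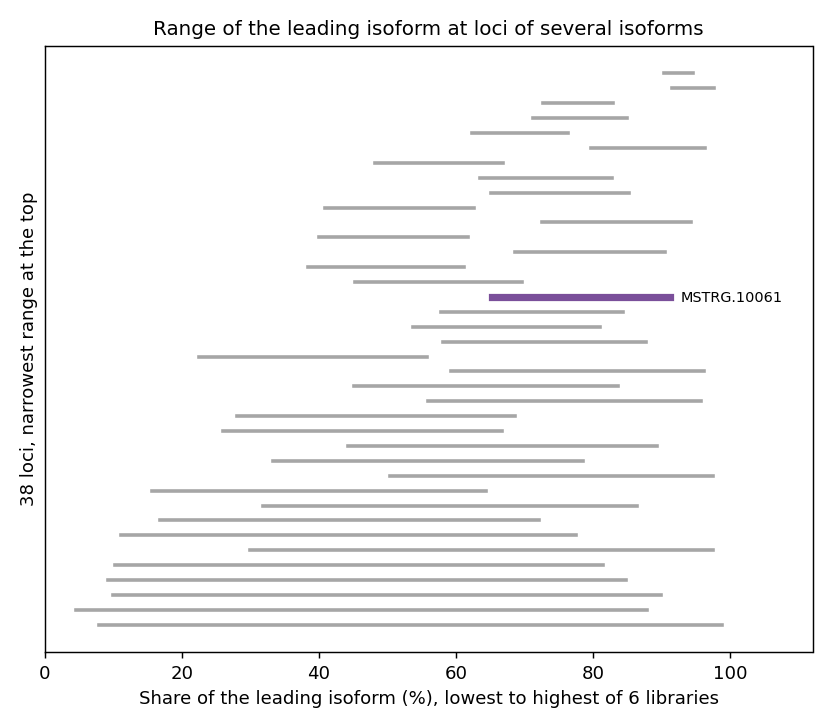
Share of the leading isoform in percent at 38 loci of several isoforms, each line running from the lowest to the highest of 6 libraries, sorted by width. MSTRG.10061, drawn thick, runs from 65.2% to 91.2% and is number 16 from the narrowest.

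The isoforms of the locus did not follow each other closely over the libraries. Pearson's r of log2(FPKM + 1) between them was 0.591 over the 6 libraries and Spearman's rho 0.543, and without the 2 libraries farthest from the median, LDM replicate 1 and PMM replicate 2, r was -0.393. All such correlations here pool the muscles, and r was computed for 1720 other transcripts, so high values arise by the choice of the highest and are given as a description. Most like MSTRG.10061.1 was MSTRG.1083.1, a single-exon intergenic transcript on chromosome 1 (r = 0.937, rho 0.943, and r = 0.904 without the 2 farthest libraries). It had 4.39, 3.17 and 3.68 FPKM in LDM replicates 1, 2 and 3, and 3.30, 1.85 and 2.51 in PMM replicates 1, 2 and 3, so that its muscles overlapped. The next 4 were MSTRG.11544.1, MSTRG.2719.1, MSTRG.3859.2 and MSTRG.12470.1, all intergenic, with r from 0.935 down to 0.888.

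Most like MSTRG.10061.3 was MSTRG.1178.1, which lies in an intron of NEDD4L on chromosome 1 from 180063006 to 180064542 by the authors' table. NEDD4L is a ubiquitin ligase of the NEDD4 family, the family whose members alpha-arrestins bind. Its lncRNA had 2.23, 0.229 and 0.600 FPKM in LDM replicates 1, 2 and 3, and 0.616, 0.221 and 0.509 FPKM in PMM replicates 1, 2 and 3. Like MSTRG.10061.3 it was highest in LDM replicate 1, lowest in PMM replicate 2 and overlapped between the muscles. The correlation was r = 0.985, rho 0.943, and r = 0.889 without LDM replicate 1 and PMM replicate 2. The next 4, MSTRG.17914.1, MSTRG.14704.2, MSTRG.235.1 and MSTRG.4683.1, were intergenic with r from 0.972 to 0.965. All 5 were highest in LDM replicate 1. Of the 1720 other transcripts, 43 (2.5%) had r over 0.8 with MSTRG.10061.3. The NEDD4L transcript was below 1 FPKM in every library but LDM replicate 1, and its counting error is not given here. For MSTRG.4683.1 the r without the 2 farthest libraries was 0.426.

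Of 18 listed genes of alpha-arrestins, the ubiquitin ligases that bind them and related receptors and arrestins, 2 were overlapped by a lncRNA, ARRDC2 and NEDD4L. The NEDD4L transcript differed by 0.36 ± 0.42 (standard error) in log2(FPKM + 1) between LDM and PMM (limma, adjusted p = 0.789 over 1721 transcripts). ARRDC2 is known, from work in mice, as a gene that glucocorticoids induce in muscle. Of 26 listed genes that glucocorticoids or FOXO factors control in muscle, 4 were overlapped by 5 lncRNAs, of which 2 were above 0 in all libraries of a muscle. MSTRG.15611.1 in TRIM63, a ubiquitin ligase of muscle wasting, had 4.41, 7.06 and 6.24 FPKM in LDM replicates 1, 2 and 3, and 7.79, 8.24 and 6.43 in PMM replicates 1, 2 and 3, which is -0.31 ± 0.33 on the log2 scale (limma, adjusted p = 0.779). MSTRG.1556.1 in KLF9, a transcription factor induced by glucocorticoids, had 0.673, 3.40 and 0.273 FPKM in LDM replicates 1, 2 and 3, and 1.27, 1.60 and 1.02 in PMM replicates 1, 2 and 3, which is -0.12 ± 0.44 on that scale (limma, adjusted p = 0.931). None of these 3 lncRNAs passed limma in either direction at an adjusted p under 0.05, where 0.0581% of the 1721 passed as higher in LDM and 0.116% as higher in PMM. By the unadjusted p from limma 0 of the 3 were under 0.05, where 7.84% of the 1721 were. PDK4 encodes a kinase that holds pyruvate dehydrogenase inactive. Its lncRNAs, MSTRG.18839.1 and MSTRG.18840.1, were highest in LDM replicate 1, with 1.46 and 1.28 FPKM. MSTRG.18839.1 was above 0 in that library alone, and MSTRG.18840.1 had 0.420 FPKM or less in every other library. In FOXO1 the lncRNA was listed above 0 in PMM replicate 1 alone, at 1.29 FPKM.

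The distances from the locus to the nearest listed lncRNAs of chromosome 2 were taken, and were not compared with the spacing of other transcripts. The nearest on the lower side, MSTRG.10047.1 and MSTRG.10045.1, were 302 kb and 313 kb away, and on the higher side MSTRG.10077.1 and MSTRG.10080.1 were 1206 kb and 1232 kb away. All 4 are single-exon intergenic transcripts, and in none of them did the muscles separate. MSTRG.10045.1, MSTRG.10047.1 and MSTRG.10080.1 were at 0 FPKM in libraries of both muscles, so they could not separate. Among the 1721 detected transcripts only 5.87% were higher in LDM and 9.01% higher in PMM with no overlap. Overlap is thus the common outcome, and nothing about the locus is read from these 4 neighbours. MSTRG.10077.1, the only one of them above 0 in every library, had 1.28, 2.48 and 1.10 FPKM in LDM replicates 1, 2 and 3, and 2.77, 3.71 and 2.31 in PMM replicates 1, 2 and 3. Its values thus leaned to PMM, with LDM replicate 2 within the range of PMM. Those of MSTRG.10061.1, which was chosen on this contrast, were higher in LDM.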

How the data were processed

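The authors prepared libraries from total RNA freed of ribosomal RNA, sequenced paired reads of 150 bases, aligned them with Tophat and give Cufflinks as the assembler, although the MSTRG prefix of the IDs is not that of Cufflinks. The deposited table of 4046 transcripts holds the authors' FPKM and the authors' mean coverage per base, a signal not scaled between libraries. The deposited CPC and CNCI scores, lengths and exon numbers were used as given. FPKM were compared as log2(FPKM + 1), LDM minus PMM. Differences, standard errors and Benjamini-Hochberg adjusted p-values came from limma (version 3.58.1, R 4.3.3) with an intensity trend, two-sided. It was run on the 1721 transcripts detected in the 3 libraries of LDM or of PMM. The fit was tried on simulated normal values set well above the low levels of many transcripts here, so that trial does not cover low values. The sum was fitted in place of the isoforms. Members, gene lists and tests were chosen with earlier results of these data known. Named transcripts are the members, the 2 nearest lncRNAs on each side, the 5 of highest Pearson's r with each member and those in the gene lists. PTRH2, SEC24A, PSMA3 and STON2 were named after their values were seen. Where the labels call libraries replicates, p-values measure the spread between these libraries. Deviations of same-numbered libraries from the muscle means correlated at 0.239, 0.123 and 0.168, and those of others at -0.179 to 0.0423. The numbers were taken as pairs on this ground. Deviations within a muscle cancel out, so these correlations are not independent of each other, and the pairing stays an assumption. Tables and plots were made in Python 3.11.15 (numpy 2.4.6, pandas 2.3.3, matplotlib 3.10.9, scipy 1.17.1). A RefSeq gene table of Sscrofa11.1 served for names and gene order only. Alternatives were the pseudocount (0.1, 0.01), scaling, coverage, filter, replicate block and left-out libraries.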

Additional observations from a re-analysis of the deposited data

How the results depend on the processing

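The log2 difference of MSTRG.10061.1 stayed positive in all 12 other settings and left-out libraries. It was 1.64 at pseudocount 0.1, 1.66 at 0.01, 1.68 with median-of-ratios scaling and 1.69 with coverage. The locus was chosen on this contrast and its muscles did not overlap, so a pseudocount or a left-out library could not reverse the direction. The block and the filter cannot change this difference, so for it these settings are no check. Leaving out 1 library gave 1.22 to 1.70 for MSTRG.10061.1, -0.15 to 1.01 for MSTRG.10061.3 and 1.08 to 1.72 for their sum. The only change of direction was that of MSTRG.10061.3 to -0.15 without LDM replicate 1. The scaling shifted the median of all 1721 transcripts by 0.10, and relative to that median MSTRG.10061.1 differed by 1.59 scaled and 1.46 as deposited. With the replicate block the differences were 1.44, 0.56 and 1.38 as without it, with standard errors of 0.30, 0.34 and 0.29, and the block brought none of the 3 listed lncRNAs in NEDD4L, TRIM63 and KLF9 to an adjusted p under 0.05 (0.672 to 0.896 from limma). The share difference of the isoforms was 8.75 points by bases and 4.86 points from summed FPKM, and 2.67 to 15.7 points with 1 library left out. Counts of transcripts with no overlap, 101 higher in LDM and 155 in PMM, were 149 and 131 after scaling. With 1 library left out, which makes overlap less likely, they ran from 158 to 431 higher in LDM and from 204 to 458 in PMM. The planned search for motifs in the ARRDC2 promoter was not run.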

Other observations

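With FPKM as deposited and summed per gene ID, the LDM over PMM ratio of the ARRDC2 locus varied less between the same-numbered pairs than that of nearly all other loci. Its log2 ratios had an SD of 0.0447 over the 3 numbers, rank 2 from the lowest of 860 gene IDs above 0 FPKM in all 6 libraries, where the median SD was 0.842. For MSTRG.10061.1 alone the SD was 0.339 and for MSTRG.10061.3 alone 1.08. After median-of-ratios scaling the SD of the locus was 0.360, rank 143 of 860 with a median of 0.768, so the low spread depends on the scaling. From bases per gigabase it was 0.0318, rank 2. Counting error was not carried into these SDs. For MSTRG.10061.1 it was 4.36% to 11.2% of the value in a library, so the ratios may lie closer together than the reads can resolve. These alternatives and the measure itself were chosen after the values had been seen, and the pairing is an assumption. The locus was chosen on the LDM against PMM contrast, and the 860 gene IDs were not matched to it for level. The rank is therefore a description, and nothing is read from it.

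In the RefSeq gene table of Sscrofa11.1 the direct neighbours of ARRDC2 in gene order are LOC106507304, annotated as a lncRNA, and KCNN1, a gene of a potassium channel. Whether LOC106507304 is the same unit as MSTRG.10061 was not tested, because the build of the authors' positions is not settled.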
